A study of Mus musculus with 49 samples.

Results

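The mouse induced pluripotent stem cell (iPSC) lines Dlx3RNAi and G6Gm were compared gene by gene. The 4 arrays were those titled for these lines, 2 per line, out of 49 arrays in the series, and 11991 genes had a value on all 4. The series asked which factors, beside the known reprogramming factors, can bring mouse somatic cells to pluripotency. Both lines are labelled as female iPSCs of strain OGXICR, from skin at D13.5, made with a doxycycline-inducible lentiviral system. Line Dlx3RNAi carries the treatment label Dlx3 RNAi, and the name of line G6Gm is not expanded in the labels. Both were grown on mitomycin C-treated embryonic fibroblasts (MEF), a feeder layer, in medium with N2 and B27 supplements, 1 µM of the MEK inhibitor PD0325901 and 3 µM of the GSK3 inhibitor CHIR99021. LIF is named in the labels as a possible replacement. The other arrays of the same processing were line G3, another iPSC line of strain OGXICR, embryonic stem cell (ESC) line R1 of strain 129, and uninfected MEF, with 2 arrays each. G3 and R1 are labelled with the same inhibitors, 1 µM PD0325901 and 3 µM CHIR99021, and MEF with neither. The age label of G3 and MEF is D13.5, and R1 has none. Whether a line is a single clone, and whether its 2 arrays are separate cultures, is not given in the sources used here. The p-values rest on the spread of arrays within groups over all 49 arrays, most of other processing. That spread may be technical.

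Pluripotent stem cells hold a self-sustaining network of transcription factors around Oct4 (Pou5f1), Sox2 and Nanog, and in mouse cultures LIF, acting through STAT3, and inhibition of MEK and GSK3 keep that network active. Reprogramming also resets the epigenome. Imprinted genes, which are read from the maternal or the paternal copy only, and the inactive X chromosome of female cells are known places where pluripotent lines of the same origin can differ. Dlx3 is a homeobox transcription factor of the distal-less family, known for roles in placenta, skin and bone.

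Each array gives a linear intensity per probe, and a difference is Dlx3RNAi minus G6Gm in log2(intensity + 32), which understates the change of dim genes. Median intensities were 295.9 to 296.2 on the arrays of this processing, and replicate arrays of a line correlated over probes at 0.9897 in Dlx3RNAi and 0.9922 in G6Gm. At an adjusted p under 0.05 (limma, Benjamini-Hochberg over all genes), 335 genes or 2.79% differed between the lines, of which 120 (1.00%) were higher and 215 (1.79%) were lower in Dlx3RNAi. Of these, 19 were higher and 45 were lower by at least 2-fold. All 335 had arrays that did not overlap between the lines, which was also so for 60.8% of all genes tested. The median difference of all genes was 0.01.

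The variance in this fit comes from all 49 arrays, with a median residual SD of 0.228 on the log2 scale. In a fit of the 10 arrays of the same processing it was 0.142, and 1791 genes passed, all 335 among them. Leaving out an array moved the count the other way, to 132 without Dlx3RNAi array 1, 56 without Dlx3RNAi array 2, 88 without G6Gm array 1 and 87 without G6Gm array 2. The number of arrays limits the precision.

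**Figure D1:**
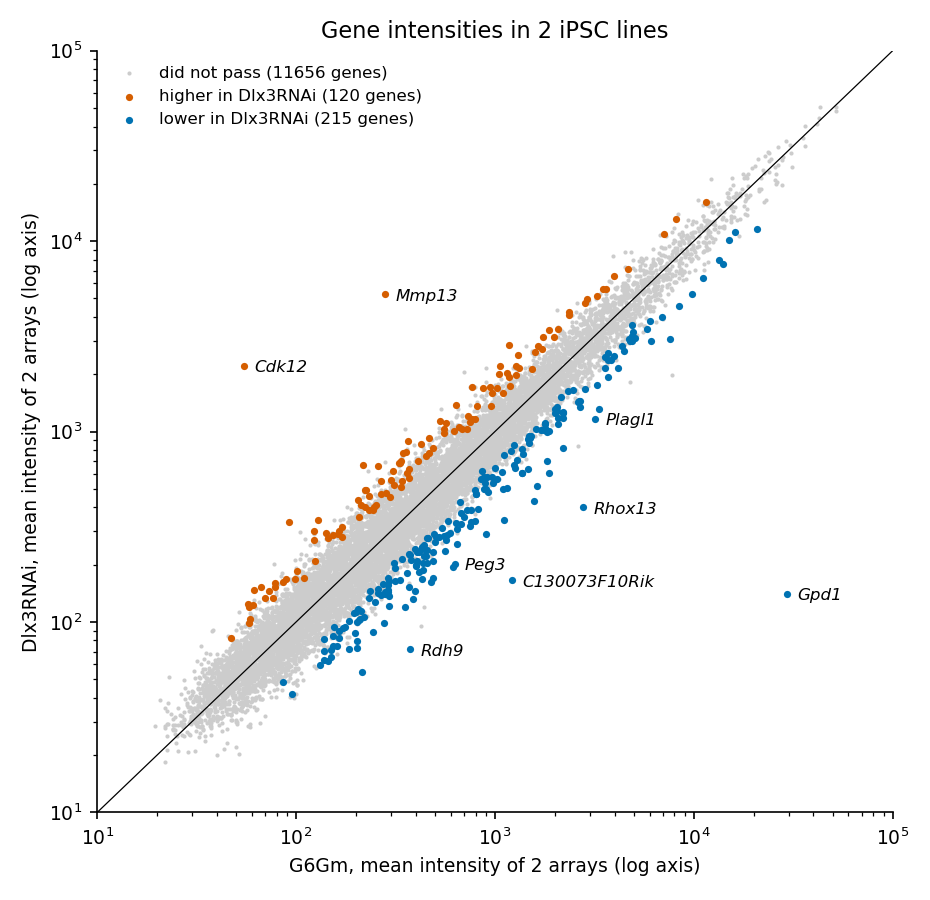
Mean intensity of each gene tested in G6Gm (horizontal axis) and Dlx3RNAi (vertical axis), 2 arrays per line, both axes logarithmic, with genes past the threshold coloured. Most genes lie along the diagonal of equal intensity; Gpd1, Cdk12 and Mmp13 lie farthest from it.

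The differences were not all departures of Dlx3RNAi from a common level. Of the 215 lower genes, Dlx3RNAi had the lowest mean among the 4 pluripotent lines of this processing in 175, while G6Gm had the highest in 103. Of the 120 higher genes, Dlx3RNAi had the highest mean in 87 and G6Gm the lowest in 77. Selecting genes by the difference between these lines favours such extreme ranks in advance, and the share over all genes is not given.

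The target named in the label was examined first. Dlx3 read 299.9 and 232.9 in G6Gm and 254.5 and 383.8 in Dlx3RNAi, so the arrays overlapped. The difference was 0.22 with a 95% confidence interval of -0.42 to 0.86 (limma, adjusted p = 0.808), an interval that holds both a decrease and an increase. Line G3 read 450.9 and 300.0, R1 read 531.1 and 614.9, and MEF read 143.6 and 92.3. A lower Dlx3 level in the line labelled Dlx3 RNAi was thus not measured against G6Gm. Whether the RNAi was active when the iPSCs were collected is not given in the sources used here. Dlx2, the other family member measured, read 93.8 and 77.0 in G6Gm and 77.6 and 81.5 in Dlx3RNAi. In limma 0 of the 2 members passed, with 0 at an unadjusted p under 0.05 and 0 in the fit of 10 arrays.

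The farthest outlying gene was Gpd1, the cytosolic glycerol-3-phosphate dehydrogenase that links glycolysis to lipid synthesis. It read 29471 on both G6Gm arrays, against 122.1 and 159.2 in Dlx3RNAi (difference -7.42, SE 0.17; limma, adjusted p = 6.65e-20). The high values belong to G6Gm alone: G3, R1 and MEF arrays read between 102.0 and 199.2. In 26 arrays of the series with other processing, whose scale is not the same, Gpd1 read from 195.4 to 721.0.

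Cdk12 and Mmp13 had the opposite pattern, with G6Gm dim and Dlx3RNAi at the level of the other lines. Cdk12, a kinase that phosphorylates the tail of RNA polymerase II, read 49.8 and 59.9 in G6Gm and 2236 and 2176 in Dlx3RNAi, with 2260 to 2737 in G3 and R1 (difference 4.69, SE 0.18; limma, adjusted p = 6.94e-19). A second Cdk12 probe did not share this: it read 216.8 and 226.0 in G6Gm and 132.8 and 148.9 in Dlx3RNAi, a difference of -0.55 (limma, adjusted p = 0.215). The Cdk12 result therefore rests on 1 of 2 probes. Mmp13, a collagenase of the extracellular matrix, read 288.3 and 273.6 in G6Gm and 5424 and 5079 in Dlx3RNAi (difference 4.08, SE 0.21; limma, adjusted p = 4.45e-07). G3 and R1 arrays read from 4102 to 4264, and MEF, the feeder cell type, read 2191 and 1884.

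Among the 15 largest falls were Rhox13, Tex19.2 and Dmrt1. Rhox13, an X-linked homeobox gene of germ cells, read 2878 and 2672 in G6Gm and 414.5 and 385.6 in Dlx3RNAi, below G3 at 1980 and 1642 and R1 at 5638 and 4339 (difference -2.70, SE 0.21; limma, adjusted p = 4.57e-10). Tex19.2, a testis-expressed gene, read 1468 and 1678 in G6Gm and 411.8 and 451.1 in Dlx3RNAi, while the G3 and R1 arrays lay between 1328 and 1520. Dmrt1, a DM-domain transcription factor of the germ line and testis, read 928.4 and 874.0 in G6Gm and 329.8 and 253.1 in Dlx3RNAi. Each of these genes was lower in Dlx3RNAi than in G6Gm, G3 and R1, and MEF read at most 121.9 for all 3.

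Dazl, an RNA-binding protein of germ cells, fell from 1530 and 1428 in G6Gm to 851.7 and 887.0 in Dlx3RNAi (difference -0.74, SE 0.17; limma, adjusted p = 0.0443). Of 12 measured genes on the germline list, Rhox13 and Dazl were lower, 0 were higher and 10 did not pass, with a median of -0.15. Ddx4, a germ cell helicase, averaged 325.1 in G6Gm and 326.9 in Dlx3RNAi, and Rhox5 averaged 10535 and 8161; neither passed, and both were chosen after their values were seen. The Tex19.2 call was lost whichever array was left out (adjusted p from 0.0543 to 0.0967), as was that of Dazl (0.195 to 0.264).

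Cbl, Fgfr2 and Socs2 were also among the 15 largest falls. Cbl, a ubiquitin ligase that turns off receptor tyrosine kinases, read 1874 and 1872 in G6Gm and 701.5 and 510.9 in Dlx3RNAi, where G3 and R1 read 488.0 to 913.0, so G6Gm was the line that stood out. Fgfr2, a receptor for fibroblast growth factors, read 596.5 and 629.8 in G6Gm and 189.5 and 200 in Dlx3RNAi. R1 read 227.7 and 192.2, near Dlx3RNAi, and G3 was above G6Gm at 644.7 and 724.2. MEF read 2539 and 3006, above every line, and the part of feeder RNA in the Fgfr2 difference was not tested.

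Socs2, a feedback inhibitor of cytokine signalling, read 2217 and 2184 in G6Gm and 936.8 and 696.3 in Dlx3RNAi (difference -1.41, SE 0.17; limma, adjusted p = 1.18e-04). G3, R1 and MEF read from 781.8 to 1132, so the high line was again G6Gm. Pim1, a kinase induced by STAT3, fell from 4242 and 4675 to 2798 and 2486 (difference -0.75; limma, adjusted p = 0.00561), a call lost without Dlx3RNAi array 2 (0.130) or G6Gm array 2 (0.110). On the list of LIF and STAT3 targets these were the 2 of 12 measured genes that passed; the median was -0.16.

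The remaining large falls were C130073F10Rik, Rdh9, Rinl, Klhl13 and Fchsd2, beside imprinted genes described further on. C130073F10Rik read 1290 and 1139 in G6Gm and 155.5 and 175.6 in Dlx3RNAi. Rdh9, a retinol dehydrogenase, read 399.0 and 346.5 in G6Gm and 84.0 and 59.5 in Dlx3RNAi, with G3 as low at 81.6 and 73.5. Rinl, a regulator of Rab GTPases, and Klhl13, an X-linked ubiquitin ligase adaptor, fell by 1.605 and 1.58, and Fchsd2, a protein of endocytosis and actin, by 1.38. The Klhl13 call was lost without G6Gm array 2 (adjusted p = 0.0849), and that of Fchsd2 without Dlx3RNAi array 1 (0.0704) or G6Gm array 2 (0.0552).

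After Cdk12 and Mmp13, the other 13 of the 15 largest rises with a Dlx3RNAi mean above the median gene intensity of 336.1 lay between 1.03 and 1.48. Just under that level, Vash1, an angiogenesis inhibitor singled out after its values were seen, rose by 1.57 (limma, adjusted p = 5.57e-04), while its second probe differed by -0.42 (0.301). Gjb2, the gap junction protein connexin 26, read 281.4 and 235.3 in G6Gm and 679.1 and 639.1 in Dlx3RNAi (difference 1.26, SE 0.20; limma, adjusted p = 2.86e-04). R1 was close to Dlx3RNAi at 578.6 and 623.9, and G3 to G6Gm at 223.4 and 216.0. Dhx16, a helicase of pre-mRNA splicing, read 1169 and 1188 in G6Gm and 3048 and 2622 in Dlx3RNAi, with 2525 to 3917 in G3 and R1. Calml4, a calmodulin-like protein, read 634.0 and 640.3 in G6Gm and 1516 and 1233 in Dlx3RNAi, but its second, dim probe differed by 0.28 (limma, adjusted p = 0.442).

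Ptprv, a receptor-type phosphatase gene, read 218.6 and 230.0 in G6Gm and 456.8 and 526.4 in Dlx3RNAi, and its second probe differed by 0.18 (limma, adjusted p = 0.751). Of the 34 genes past the threshold with several measured probes, all probes passed in the same direction for 8, and probes had opposite signs for 7.

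Other rises passed with all 4 arrays and lost the call when an array was left out. Tubb4a, a neuronal beta-tubulin, lost it without Dlx3RNAi array 2 (adjusted p = 0.0809), as did Pdgfrl, a PDGF receptor-like protein (0.0675), and Tesc, a calcium-binding protein (0.0719). AW551984 lost it without Dlx3RNAi array 2 (0.179) or G6Gm array 2 (0.153). Dpt, the matrix protein dermatopontin, kept it only without G6Gm array 1 (0.0255). Galnt2, an enzyme that starts O-glycosylation, Pold4, a subunit of DNA polymerase delta, Fermt2, the integrin activator kindlin-2, and 2610528A11Rik lost it whichever array was left out. Their adjusted p-values then lay between 0.0568 and 0.228.

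**Figure D2:**
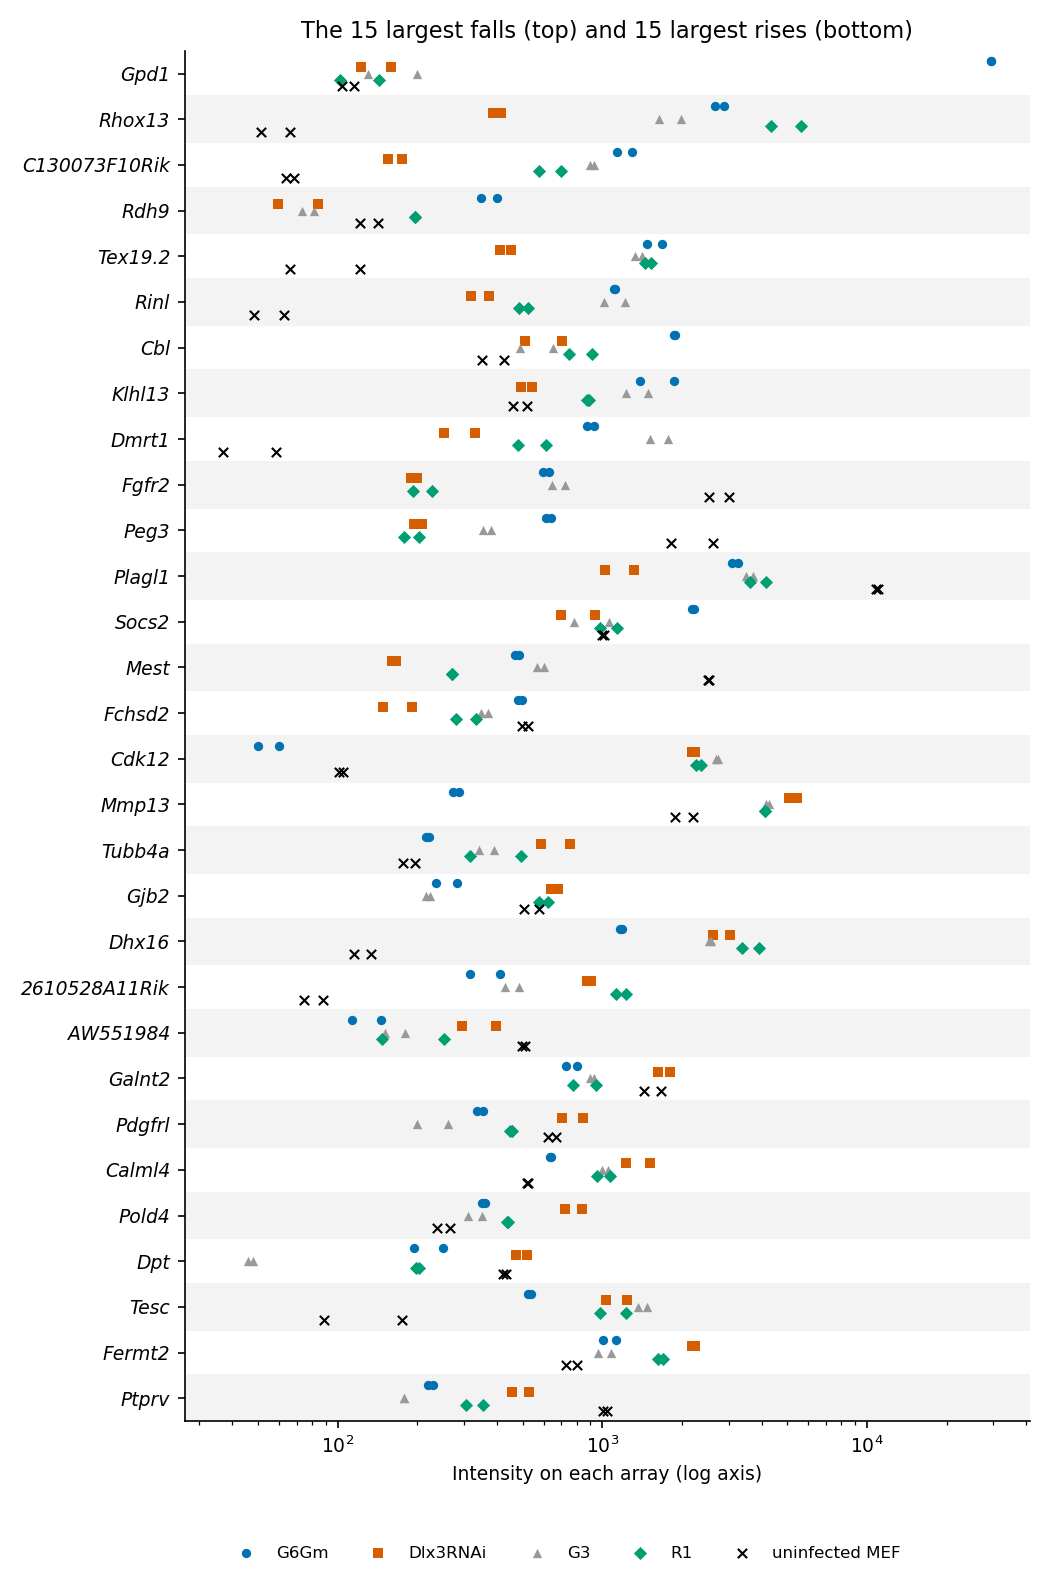
Intensity on each array (logarithmic axis) of the 15 largest falls, above, and 15 largest rises, below, in G6Gm, Dlx3RNAi, G3, R1 and uninfected MEF, with 2 points per group. G6Gm stands alone for Gpd1 and is dim for Cdk12 and Mmp13; Dlx3RNAi is the lowest of the 4 pluripotent lines for Rhox13, Tex19.2 and Plagl1.

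Imprinted genes had a median difference close to 0, and the largest differences among them were falls. Of 28 measured, 5 were lower, 2 were higher and 21 did not pass, with a median of 0.00; of all genes, 1.79% were lower and 1.00% higher. The 5 were Peg3, Plagl1, Mest, Sfmbt2 and Peg12, all known to be read from the paternal copy. Igf2, also read from the paternal copy, was 1 of the 2 that were higher. Of the 28 genes 14 lay above 0, and the list was not split by parental copy. The annotation places Peg3 and Peg12 on chromosome 7 and Plagl1 on chromosome 10. The RefSeq windows of these 3 genes, from 250 bases before to 50 after the annotated start (GRCm38.p6), are shown because imprinting acts through methylation of cytosine in CG pairs, and capitals mark those pairs. The windows lie at chr7:6730370-6730669 (minus strand) for Peg3, chr7:62464461-62464760 (minus strand) for Peg12 and chr10:13090582-13090881 (plus strand) for Plagl1.
Peg3: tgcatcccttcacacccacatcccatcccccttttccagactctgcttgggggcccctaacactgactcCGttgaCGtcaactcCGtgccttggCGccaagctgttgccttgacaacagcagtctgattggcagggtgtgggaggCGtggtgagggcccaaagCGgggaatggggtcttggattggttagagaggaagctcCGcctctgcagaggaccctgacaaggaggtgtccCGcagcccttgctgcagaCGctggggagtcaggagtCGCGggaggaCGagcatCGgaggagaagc
Peg12: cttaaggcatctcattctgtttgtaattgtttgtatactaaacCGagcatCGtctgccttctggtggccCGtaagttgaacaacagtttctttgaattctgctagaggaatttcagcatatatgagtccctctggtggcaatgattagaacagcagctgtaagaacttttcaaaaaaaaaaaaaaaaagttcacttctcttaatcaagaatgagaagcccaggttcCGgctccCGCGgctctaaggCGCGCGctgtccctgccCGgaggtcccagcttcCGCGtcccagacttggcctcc
Plagl1: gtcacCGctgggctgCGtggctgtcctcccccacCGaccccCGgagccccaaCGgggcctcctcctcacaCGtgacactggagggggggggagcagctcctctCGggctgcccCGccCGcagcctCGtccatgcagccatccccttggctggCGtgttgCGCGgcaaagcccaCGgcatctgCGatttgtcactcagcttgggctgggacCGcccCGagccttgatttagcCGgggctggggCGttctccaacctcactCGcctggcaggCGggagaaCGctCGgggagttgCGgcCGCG

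The motif CG, which reads the same on both strands, occurs 13 times in the Peg3 window, 12 times in that of Peg12 and 26 times in that of Plagl1. Over 32851 promoter windows of the same length the median was 7, and 94.6% held at least 1. At least 13 were found in 37.9%, at least 12 in 39.6% and at least 26 in 16.9%. Methylation was not measured, and none of these counts bears on it.

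Peg3, a zinc finger protein, read 639.6 and 614.1 in G6Gm and 193.8 and 208.4 in Dlx3RNAi (difference -1.50, SE 0.22; limma, adjusted p = 1.33e-04). R1 was as low as Dlx3RNAi, at 203.7 and 178.8, and G3 lay between at 381.0 and 353.4. Plagl1, a growth-suppressing zinc finger factor, read 3086 and 3267 in G6Gm and 1319 and 1023 in Dlx3RNAi (difference -1.43, SE 0.12; limma, adjusted p = 7.76e-10). Here G3 and R1 read 3473 to 4146, so Dlx3RNAi was the line apart.

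Mest, a hydrolase-like protein, read 485.2 and 467.3 in G6Gm and 165.5 and 160.2 in Dlx3RNAi, and its second probe differed by -1.26 (limma, adjusted p = 0.00881). Sfmbt2, a Polycomb protein, read 391.1 and 384.4 in G6Gm and 141.5 and 123.4 in Dlx3RNAi, below G3 and R1. Both Mest and Sfmbt2 kept the call whichever array was left out, as did Peg3 and Plagl1. MEF read 1809 to 11041 for Peg3, Plagl1 and Mest, far above either line, and 93.3 and 107.8 for Sfmbt2.

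Peg12, a homologue of the GSK3-binding protein FRAT, read 157.8 and 170.8 in G6Gm and 84.0 and 80.8 in Dlx3RNAi (difference -0.78; limma, adjusted p = 0.0273). H19, a maternally expressed noncoding RNA, and Igf2, its paternally expressed growth factor neighbour, were both higher in Dlx3RNAi. H19 rose from 752.4 and 739.2 to 1068 and 1181 (difference 0.57; limma, adjusted p = 0.0349). Igf2, which is outside the rule for named genes, rose from 12284 and 10817 to 15894 and 16150 (difference 0.47; limma, adjusted p = 0.00938). MEF held far more of both, with H19 at 31624 and 30270, and the part of feeder RNA in these rises was not tested. Without an array, Igf2 kept its call only when G6Gm array 1 was left out (0.0259; otherwise 0.0652 to 0.219). The calls of Peg12 and H19 were lost whichever array was left out (adjusted p from 0.0966 to 0.329).

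**Figure D3:**
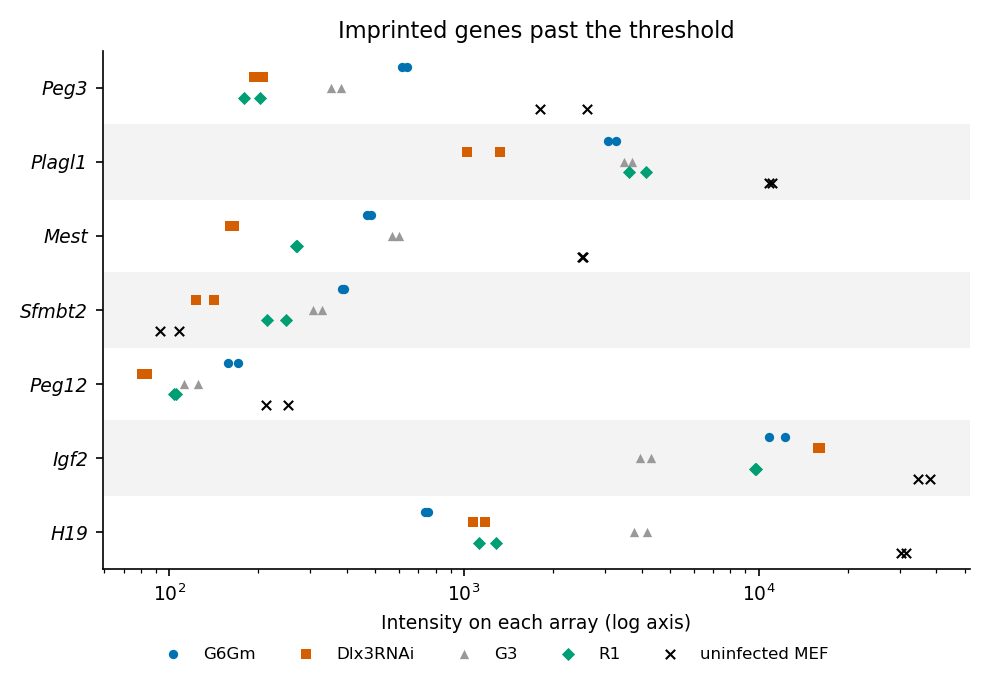
Intensity on each array (logarithmic axis) of the imprinted genes past the threshold, with 2 points for each of G6Gm, Dlx3RNAi, G3, R1 and uninfected MEF. Peg3, Plagl1, Mest, Sfmbt2 and Peg12 are lower in Dlx3RNAi than in G6Gm, and Igf2 and H19 are higher, with MEF highest for both.

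A larger share of X-linked than of autosomal genes was lower in Dlx3RNAi. Chromosomes are those of RefSeq's annotation of GRCm38.p6. Of 388 X-linked genes 23 were lower (5.93%) and 1, Srpk3, was higher, against 192 (1.66%) and 119 (1.03%) of 11583 autosomal genes. The median difference was -0.13 on the X and ranged from -0.04 to 0.04 over the 19 autosomes. On the X 58.0% of genes lay below 0, against 45% to 55% on the autosomes. Genes are not independent replicates, and no test was made of the chromosome as a whole. In the fit of the 10 arrays of the same processing, 61 X-linked genes (15.7%) were lower, against 8.27% of all genes. In that fit 20 of the 388 X-linked genes were higher, and so were 799 of all 11991 genes. Leaving out an array left 16 lower X-linked genes without Dlx3RNAi array 1, 6 without Dlx3RNAi array 2, 9 without G6Gm array 1 and 10 without G6Gm array 2.

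G6Gm was the line whose X-linked genes stood apart. Relative to the autosomes of the same array, the median X-linked deviation from the mean of the 4 lines was 0.063 and 0.062 on the G6Gm arrays, and -0.015 and -0.041 on the Dlx3RNAi arrays. G3 read 0.008 and -0.041 and R1 read -0.017 and -0.010, so Dlx3RNAi lay among the other lines. Deviations of this size were not confined to the X: single autosomes reached from -0.091 to 0.169 on an array. For the 23 lower genes, Dlx3RNAi had the lowest mean of the 4 lines in 21, and G6Gm the highest in 8. As these genes were selected for a lower value in Dlx3RNAi than in G6Gm, both ranks were favoured in advance.

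**Figure D4:**
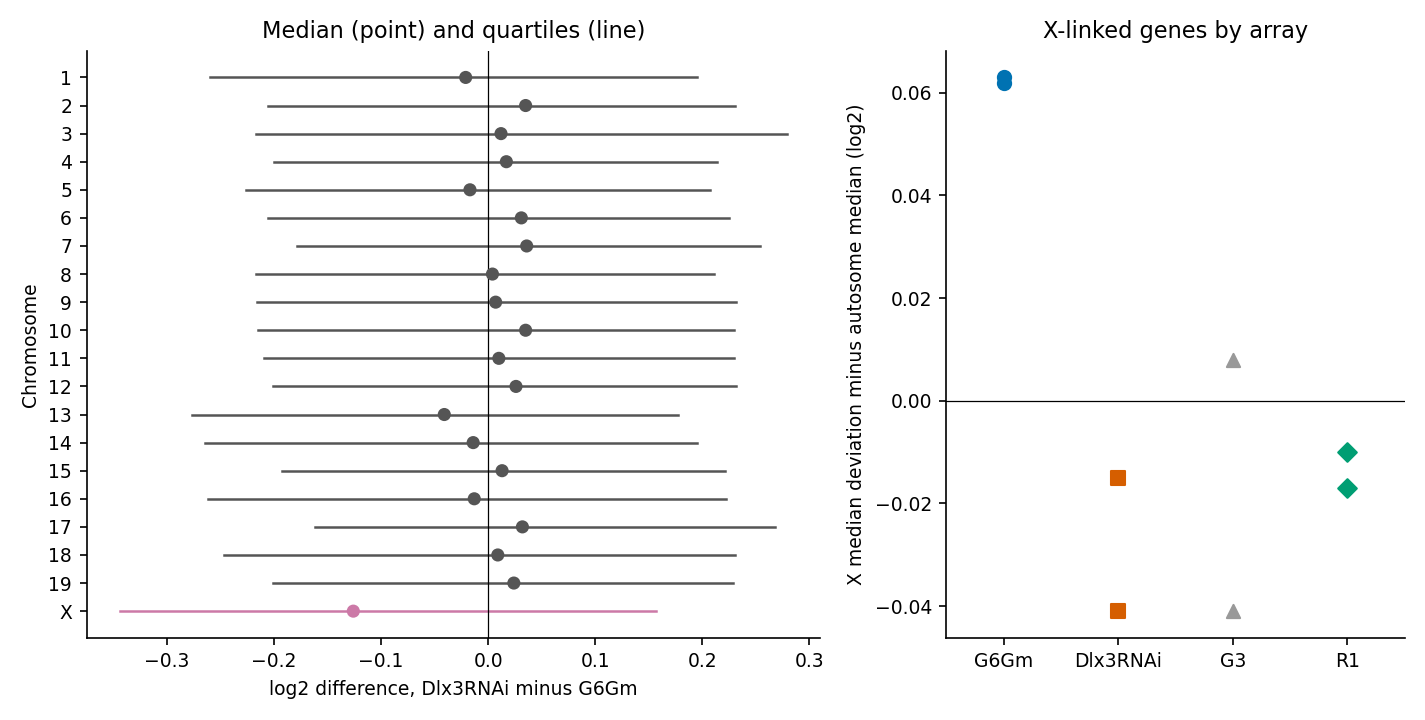
Left, log2 difference between Dlx3RNAi and G6Gm by chromosome, with the median as a point and the quartiles as a line. Right, median deviation of X-linked genes on each array of the 4 pluripotent lines, minus that of the autosomes. The X has the lowest median, at -0.126, and the G6Gm arrays lie at 0.063 and 0.062, above the others.

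The X-linked genes in this and the next paragraph, other than Rhox13, Klhl13, Nr0b1 and Sox3, were singled out after their values were seen. Prps1, which makes the precursor of nucleotides, read 7248 and 7981 in G6Gm and 3014 and 3105 in Dlx3RNAi (difference -1.30, SE 0.17; limma, adjusted p = 1.58e-05). G3 read 6593 and 5424 and R1 4566 and 4807, so Dlx3RNAi was lowest. Scml2, a Polycomb-related protein, read 210.4 and 216.9 in G6Gm and 50.2 and 59.5 in Dlx3RNAi. Dusp9, a phosphatase that dampens ERK signalling, read 2130 and 1528 in G6Gm and 770.0 and 626.3 in Dlx3RNAi (difference -1.34; limma, adjusted p = 0.00232).

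Hprt, the purine salvage enzyme, read 16222 and 16150 in G6Gm and 12004 and 10286 in Dlx3RNAi. Huwe1, a large ubiquitin ligase, read 4642 and 4109 in G6Gm and 2855 and 2789 in Dlx3RNAi. Of the 24 X-linked calls, 5 were kept whichever array was left out, namely those of Rhox13, Scml2, Prps1, Xk and Stard8. That of Dusp9 was lost without Dlx3RNAi array 2 (adjusted p = 0.0843) or G6Gm array 1 (0.108). Hprt kept its call only without Dlx3RNAi array 1 (0.0226), and Huwe1 lost it in every case (0.0849 to 0.246).

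Xist, the noncoding RNA that coats the inactive X, was dim in both lines, at 78.0 and 81.1 in G6Gm and 69.6 and 58.5 in Dlx3RNAi, and did not pass (limma, adjusted p = 0.713). MEF read 159.5 and 151.6. The Y-linked gene Kdm5d read 90.2 and 83.8 in G6Gm and 89.0 and 128.1 in Dlx3RNAi, under the 270.1 and 221.7 of MEF. G3 was also dim at 74.8 and 66.3, and R1 at 100.4 and 103.7. Whether this probe tells male from female lines was not tested. Rlim, the X-linked activator of Xist, did not pass either.

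The 4 measured defining markers Pou5f1, Sox2, Zfp42 and Utf1 summed to 10948 and 10630 in G6Gm and 9524 and 8777 in Dlx3RNAi, against 325 and 333 in MEF. Sox2 read 5268 and 4626 in G6Gm and 4385 and 3458 in Dlx3RNAi (difference -0.34; limma, adjusted p = 0.426). Pou5f1 was dim on this platform, at 113.2 and 133.8 in G6Gm and 221.1 and 296.3 in Dlx3RNAi, and its difference of 0.89 did not pass (limma, adjusted p = 0.147).

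Of 12 measured pluripotency genes 1 was lower, 0 were higher and 11 did not pass, with a median of -0.25. The one was Nr0b1 (Dax1), an X-linked nuclear receptor of the network, at 912.1 and 858.2 in G6Gm and 568.3 and 583.2 in Dlx3RNAi (difference -0.59; limma, adjusted p = 0.0459). This call was lost whichever array was left out (0.199 to 0.284). A second Nr0b1 probe differed by -0.94 (limma, adjusted p = 0.0247). In MEF the probes disagreed, with 1796 and 1304 on the first, above both lines, and 63.0 and 57.2 on the second. Klf4 also averaged more in MEF (2469) than in G6Gm (1974) or Dlx3RNAi (1750). Sox3, an X-linked relative of Sox2 and the 1 of 9 on the primed epiblast list that passed, fell from 182.5 and 161.6 to 95 and 90.3 (difference -0.71; limma, adjusted p = 0.0327), a call also lost in every case (0.131 to 0.264).

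Among the genes used as reprogramming factors in the series, Klf4, Gata4, Gata6, Cebpa, Grb2, Mixl1 and Gmnn did not pass, with differences from -0.15 to 0.61. The lists for DNA methylation machinery (7 measured), trophoblast (7), extraembryonic endoderm (17), mesendoderm (10), endothelial genes (11), ERK feedback (12) and Wnt targets (8) held 0 genes past the threshold. The same was so of p53 and senescence (16), glycolysis (10), hypoxia (13), contractile and TGF-beta targets (10) and 2-cell embryo genes (3). Of the 123 genes on these 12 lists, each counted once, 0 passed in limma, 19 (15.4%) had an unadjusted p under 0.05, as did 1849 (15.4%) of all genes tested. In the fit of 10 arrays 24 (19.5%) passed, against 14.9% of all genes. The pooled shares cover unlike lists. Hypoxia held 5 of 13 genes at an unadjusted p under 0.05, with a median of 0.32 and 12 above 0. In the fit of 10 arrays 6 of 12 ERK feedback, 5 of 13 hypoxia and 4 of 7 trophoblast genes passed. In that fit 0 of 10 mesendoderm and 0 of 16 p53 and senescence genes did. The count of 0 for ERK feedback in the main fit rests on the brighter probe of Phlda1, which differed by 0.31. A second Phlda1 probe passed, at 467.7 and 333.6 in G6Gm and 985.9 and 857.2 in Dlx3RNAi (difference 1.15; limma, adjusted p = 8.92e-04). A gene that did not pass is not shown to be equal in the lines. Pgf, a placental growth factor, averaged 10563 in G6Gm and 16484 in Dlx3RNAi (adjusted p = 0.234), and Uhrf1, which keeps methylation through replication, 3627 and 2340 (0.395).

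Feeder fibroblasts could add RNA to either sample, and in bulk RNA fewer cells of a type and less RNA per cell cannot be told apart. The 6 measured defining fibroblast markers summed to 15800 and 16843 in G6Gm and 17506 and 17870 in Dlx3RNAi, and none was near 0. Bright genes carry this sum: Col1a2 averaged 10929 in G6Gm and 11893 in Dlx3RNAi, and Prrx1 4356 and 4917. The others, Col3a1, Pdgfra, Twist1 and Snai2, averaged less in Dlx3RNAi, with differences from -0.47 to -0.08. Of the 6 markers 0 passed. MEF summed to 20022 and 22229, G3 to 4691 and 4863, and R1 to 9585 and 8768. Of 31 measured genes on the whole fibroblast and feeder list 1 was higher, 0 were lower and 30 did not pass. The median was 0.13, and 22 lay above 0. The list summed to 146383 and 137616 in G6Gm and 180609 and 164156 in Dlx3RNAi. The one was Col6a1, a collagen VI chain, from 7048 and 7093 to 10817 and 11041 (difference 0.63; limma, adjusted p = 0.0276), a call lost whichever array was left out (0.123 to 0.199). Of the 15 largest rises, Cdk12, Mmp13, Gjb2, Galnt2, Pdgfrl, Dpt, Ptprv and AW551984 read higher on both MEF arrays than in G6Gm. The rest, Tubb4a, Dhx16, 2610528A11Rik, Calml4, Pold4, Tesc and Fermt2, read lower on both. Cdk12, Mmp13, Gjb2, Galnt2, Pdgfrl and Dpt also averaged more in Dlx3RNAi than in MEF, and Ptprv and AW551984 less. The part of feeder RNA in these rises was not tested.

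Few epithelial and immune genes passed, and those that did were higher in Dlx3RNAi. Of all genes tested, 1.00% were higher and 1.79% lower. Krt19, a simple-epithelium keratin, read 1134 and 1471 in G6Gm and 2324 and 2732 in Dlx3RNAi (difference 0.95; limma, adjusted p = 0.00462), below the 3142 to 4154 of G3 and R1. It was the 1 of 9 measured epithelial genes that passed, and the call was lost without Dlx3RNAi array 2 (0.127) or G6Gm array 1 (0.144). Gjb2 was the 1 of 14 on the keratinocyte list, whose 5 measured defining markers summed to 3940 and 3757 in G6Gm and 3995 and 3958 in Dlx3RNAi. Sfn carries this sum, averaging 2693 in G6Gm and 2420 in Dlx3RNAi. Krt14 averaged 402.6 and 727.9 and Krt5 122.2 and 204.3, while Krt10 and Trp63 differed by 0.005 and -0.055. Of the 5 markers 0 passed. The list median was 0.40, and 11 genes lay above 0. Mmp13, for which G6Gm was the dim line, was the 1 of 16 on the inflammatory list.

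On the myeloid list Csf1r, the receptor for macrophage colony-stimulating factor, and Ctss, a protease of antigen-presenting cells, were the 2 of 11 that passed. Csf1r rose from 97.8 and 105.2 to 194.7 and 176.4 (difference 0.70; limma, adjusted p = 0.00910), and Ctss from 108.7 and 138.5 to 290.9 and 250.4. G3 and R1 averaged less than either line for both genes, with Csf1r at 87.38 and 85.11 and Ctss at 74.39 and 84.95. The 4 measured defining myeloid markers, Csf1r among them, summed to 493 and 512 in G6Gm and 587 and 573 in Dlx3RNAi. The whole list summed to 3730 and 3938 in G6Gm and 5515 and 5557 in Dlx3RNAi, with more in G3 (6535 and 6627) and R1 (6968 and 6581). Its brightest member, Laptm5, also singled out after its values were seen, averaged 2144 in G6Gm and 3064 in Dlx3RNAi and did not pass (limma, adjusted p = 0.190). Laptm5 averaged 4628 in G3 and 4391 in R1, and so made up most of the list sum in those lines. Psmb8, an immunoproteasome subunit, was the 1 of 22 interferon response genes that passed (difference 0.65; limma, adjusted p = 0.0498). These 3 calls were lost whichever array was left out (0.0675 to 0.401).

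Some genes of growth and metabolism also differed. Bub1b, a spindle checkpoint kinase, fell from 1224 and 1300 to 662.8 and 617.6 (difference -0.94, SE 0.17; limma, adjusted p = 0.00125), while G3 and R1 read 1100 to 1258. It and Cdk2, a kinase of the entry into S phase (difference -0.63; limma, adjusted p = 0.0400), were the 2 of 23 measured cell cycle genes that passed. A second, dim Cdk2 probe differed by -0.02. Gclc and Gclm, the subunits of the enzyme that starts glutathione synthesis, both fell, by 0.80 and 0.81. Gpx3, a secreted glutathione peroxidase, rose by 0.60 on the log2 scale, and these were the 3 of 14 on the metallothionein and redox list.

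Fdps, a cholesterol pathway enzyme (1 of 15), and Ddit3, the stress factor CHOP (1 of 15 stress and ATF4 targets), were each higher by 0.71 and 0.70. Nefm, a neurofilament, and Sox21, a neural SoxB factor, fell by 1.17 and 1.05 and were the 2 of 12 neural genes that passed. Without single arrays Bub1b kept its call, Gpx3 lost it without Dlx3RNAi array 2 (0.0998) or G6Gm array 1 (0.115), and Nefm without Dlx3RNAi array 2 (0.0765). Cdk2, Gclc, Gclm, Fdps, Ddit3 and Sox21 lost theirs in every case, with adjusted p from 0.0939 to 0.379. Over all lists, which were chosen with earlier results known, 379 genes were measured and 29 (7.65%) passed, against 2.79% of all genes.

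**Figure D5:**
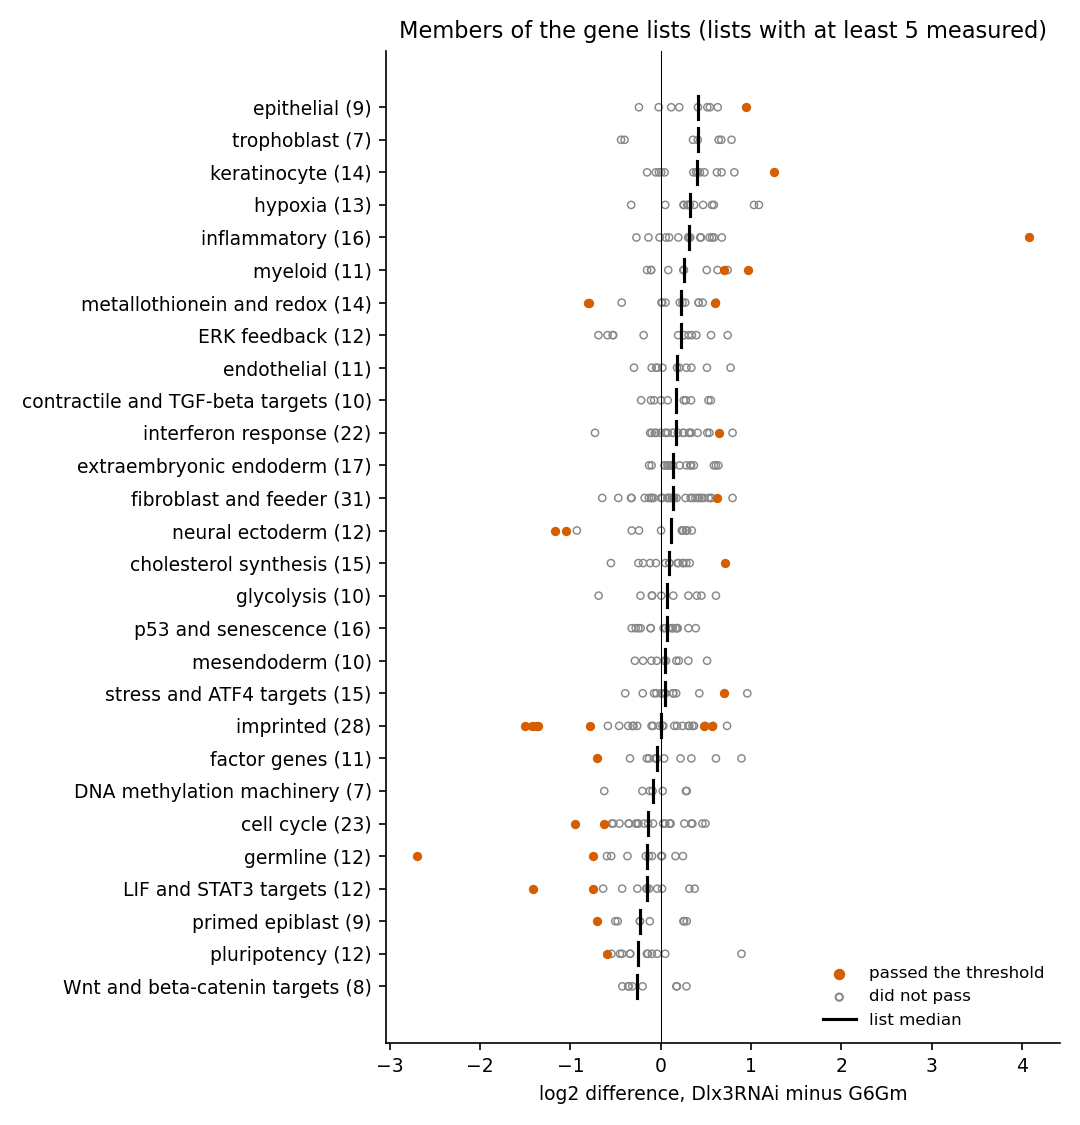
Log2 difference between Dlx3RNAi and G6Gm of each measured gene on the lists with at least 5 measured, with genes past the threshold filled and the list median as a black bar. List medians lie from -0.258 to 0.412, and Mmp13 on the inflammatory list and Rhox13 on the germline list lie farthest out.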

How the data were processed

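RNA from 49 samples was hybridised to one-colour (Cy5) arrays, per the labels. The authors' deposited values are linear intensity per probe; no source used here states the scanner software or how background and scale were treated. The 10 arrays of G6Gm, Dlx3RNAi, G3, R1 and uninfected MEF lack the same probes, and their sorted values nearly coincide (median deviation 0.0573%), so groups were compared only within them. Of 19426 probes, 15539 carried 1 gene symbol; the 3887 without one were left out. The probe with the highest mean over all arrays stood for its gene.

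Values were taken as log2(intensity + 32). limma 3.58.1 in R 4.3.3 fitted group means over 49 arrays, those of other processing adding to the variance only, with an intensity trend, two-sided, with Benjamini-Hochberg adjustment over 11991 genes and a threshold of 0.05. The fit was tested on simulated data, drawn for each gene with the same SD in every group. That simulation could not test whether the groups share a spread. Same-numbered arrays of Dlx3RNAi and G6Gm did not deviate together (correlation -0.136). Over the other pairs of groups in the set, the correlation ranged from -0.24 (MEF and Dlx3RNAi) to 0.238 (Dlx3RNAi and R1).

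The comparison and the 32 gene lists were chosen with earlier results of these data known. Named genes were the 15 largest rises and falls that passed, with arrays apart and the brighter line above the median gene intensity (336.1), up to 6 passing members per list, the brightest 2 of lists where none passed, Dlx3 and the factor genes. Alternatives covered the pseudocount, dim genes, normalization, probes, the arrays fitted, the variance trend, the replicate block and each array left out.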

Additional observations from a re-analysis of the deposited data

How the results depend on the processing

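No gene past the threshold changed sign under any alternative, which for many alternatives was fixed in advance. All 335 had arrays apart between the lines, so leaving out an array could not reverse a sign. Fits of fewer arrays, without the variance trend or with the replicate block keep the same difference by construction. Restricting the fit to the 10 arrays gave 1791 genes (799 higher, 992 lower; 96 list genes) and to the 4 arrays 1718 (787, 931; 94). The replicate block, with 10 arrays, gave 1612 (717, 895; 88), and with crossed numbers, added after seeing the data, 1667 (767, 900; 90). Leaving out an array gave 56 to 132 genes, 18 to 37 higher and 38 to 95 lower, with 9 to 13 list genes; the lone array of a line was assumed to vary like the other groups. The X-linked median was -0.085 with the higher pseudocount, -0.153 with dim genes left out (brighter line under 200; also in the version added later), and -0.116 to -0.082 with an array left out. Pseudocounts, normalizations, probe means and no variance trend left 307 to 360 genes, and leaving out dim genes 390 of 7884. Of 51 named genes that passed, 20 kept the call whichever array was left out and 43 in every other alternative. Quantile normalization and median centring gave 335 genes, as deposited; cyclic loess gave 136 higher and 199 lower. No background readings were used, so which dim genes stand above background is unknown.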

Other observations

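Of 1137 probes with a value on all 4 arrays but no gene symbol, 25 (2.20%) passed the threshold in limma, 5 higher and 20 lower in Dlx3RNAi. The largest fall was probe mMC001055, with mean intensity 1086 in G6Gm, 124.2 in Dlx3RNAi, 1048 in G3 and 129.5 in R1 (difference -2.84, SE 0.28; adjusted p = 6.53e-08). Their genes are not named here. By chromosome, chromosome 2 held 26 lower and 3 higher genes of 961, and chromosome 3 held 4 lower and 14 higher of 579; the chromosomes were singled out after their values were seen, and no test was made.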
